A study of Mus musculus with 12 samples.

Results

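The miR-183 cluster comprises miR-183, miR-96 and miR-182, 3 miRNAs cut from a shared primary transcript. Its members were taken by name as every assay for one of these miRNAs, either strand, which gave 4 assays (mmu-miR-182_002599, hsa-miR-183_002269, hsa-miR-183#_002270 and mmu-miR-96_000186) of the 619 miRNA assays in the table. The cluster itself was chosen by an earlier look at the same data, in which miR-182 had the lowest p of all miRNAs between *P2rx7*-/- and wt control mice. That comparison, and every other group comparison of miR-182 with these control samples, is therefore given as a description without a p of miR-182. P-values of miR-182 computed for group comparisons with these samples are left out. Between groups, a test of miR-182 is given only for the genotypes after status epilepticus.

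Hippocampal miRNAs were measured by TaqMan OpenArray, a qPCR plate read as the threshold cycle (Ct). Abundant miRNAs cross the threshold early and have a low Ct, and a miRNA doubled in amount crosses it about 1 cycle sooner. The 12 samples covered 2 genotypes, wt and *P2rx7*-/-, each under control conditions and after status epilepticus (post-SE), with 3 samples in each of the 4 groups. All mice were labelled C57BL/6 and 8 weeks old, although the methods give a wider age range. Control mice received vehicle and post-SE mice kainic acid (KA) into the amygdala, which triggers the seizures, and all received lorazepam. Each sample was 1 µg of total RNA from a pool of 2 ipsilateral hippocampi of different mice, taken 8 h after injection. The *P2rx7*-/- mice lack the P2X7 receptor, an ATP-gated ion channel, in every cell and from birth, and the panel holds no assay for the receptor, so genotype could not be checked in these values. As whole hippocampi were used, fewer cells of a type and less miRNA per cell cannot be told apart.

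The miR-183 cluster is best known from sensory organs. It is abundant in photoreceptors, inner ear hair cells and other sensory neurons, and changes in the miR-96 seed cause hearing loss in mice and humans. In the retina its members rise in light and decay quickly in the dark. A miRNA finds its targets mainly through its seed, bases 2 to 8 from the 5′ end, and the passenger strand of a hairpin, marked with an asterisk or #, carries another seed than the guide strand.

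The mature mouse sequences are shown because they tell the 4 assays apart and show how alike the guide strands are. They are RefSeq entries on GRCm38.p6, minus strand, printed 5′ to 3′ with the seed in capitals, and all 4 names were found there.

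mmu-miR-182-5p, chr6:30165962-30165986: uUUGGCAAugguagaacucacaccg
mmu-miR-96-5p, chr6:30169506-30169528: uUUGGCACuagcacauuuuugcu
mmu-miR-183-5p, chr6:30169711-30169732: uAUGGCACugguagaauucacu
mmu-miR-183-3p (miR-183*), chr6:30169672-30169693: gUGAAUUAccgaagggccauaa

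With positions counted from the 5′ end, the seed of miR-182 differs from that of miR-96 by A8C alone, and the seed of miR-96 from that of miR-183 by U2A alone. Between miR-182 and miR-183, 18 of 22 aligned positions are the same, including the run UGGUAGAA from base 9. Each guide strand therefore has a seed of its own, and in the RefSeq table miR-96 shares its seed with 1 other mouse miRNA, mmu-miR-1271-5p, and miR-182 and miR-183 with 0. The seed of miR-183* has 0 to 2 bases at the same position as the guide seeds. The assay names carry mouse or human prefixes, and the primer sequences were not used here.

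The hairpins lie inside the long non-coding RNA gene *Mirc35hg*, between the protein-coding genes *Nrf1* and *Ube2h*. *Mir183* (chr6:30169668-30169737) and *Mir96* (chr6:30169446-30169551) are 116 bases apart, and *Mir182* (chr6:30165918-30165992) follows 3453 bases after *Mir96*. The whole cluster spans 3820 bases.

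**Figure D1:**
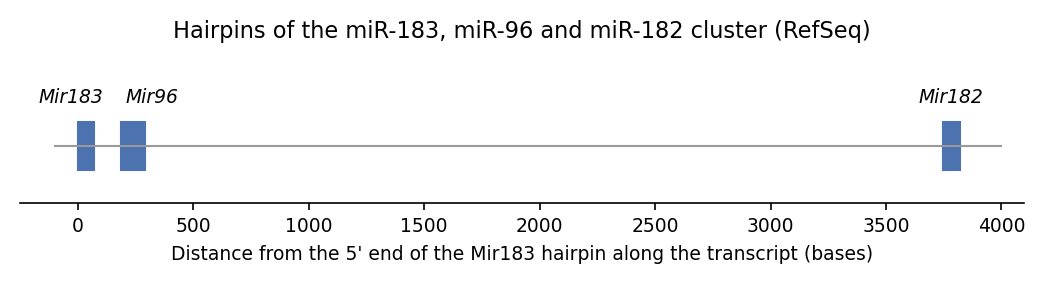
Hairpins of the cluster as annotated by RefSeq, drawn to scale along the transcript, with the distance from the 5′ end of the *Mir183* hairpin in bases. *Mir183* and *Mir96* are neighbours and *Mir182* lies at the far end of the 3820 bases.

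Of the 4 assays, only miR-182 gave a Ct in all 12 samples and belonged to the 335 miRNAs analyzed across all groups. miR-183* had a Ct in 10 samples, miR-183 in 7 and miR-96 in 1. The table lists Ct values from 10.06 to just under 28 and leaves others empty, and it does not say whether an empty value lay above or below these limits or failed. Among all miRNA assays within 1 cycle of the same mean Ct, 17.8% of values were empty around miR-182, 22.7% around miR-183* and 66.3% around miR-96. The shares for the members themselves were 0% for miR-182, 16.7% for miR-183* and 91.7% for miR-96, with 12 values behind each. miR-183, with 41.7% empty, fell into separate levels on either side of its mean Ct, so no such assays were set beside it.

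Among the samples, wt control replicate 1 stood apart. Its Ct values ranked the 335 miRNAs with Spearman correlations of 0.660 to 0.737 to the other samples, against 0.872 to 0.989 among the other 11. Of neurons' typical miRNAs, miR-128a had a Ct in 12 samples (12.9 to 14.9), miR-124a in 11 and miR-9 in 4 (10.1 to 12.3), so empty values also occurred at the abundant end of the scale.

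**Figure D2:**
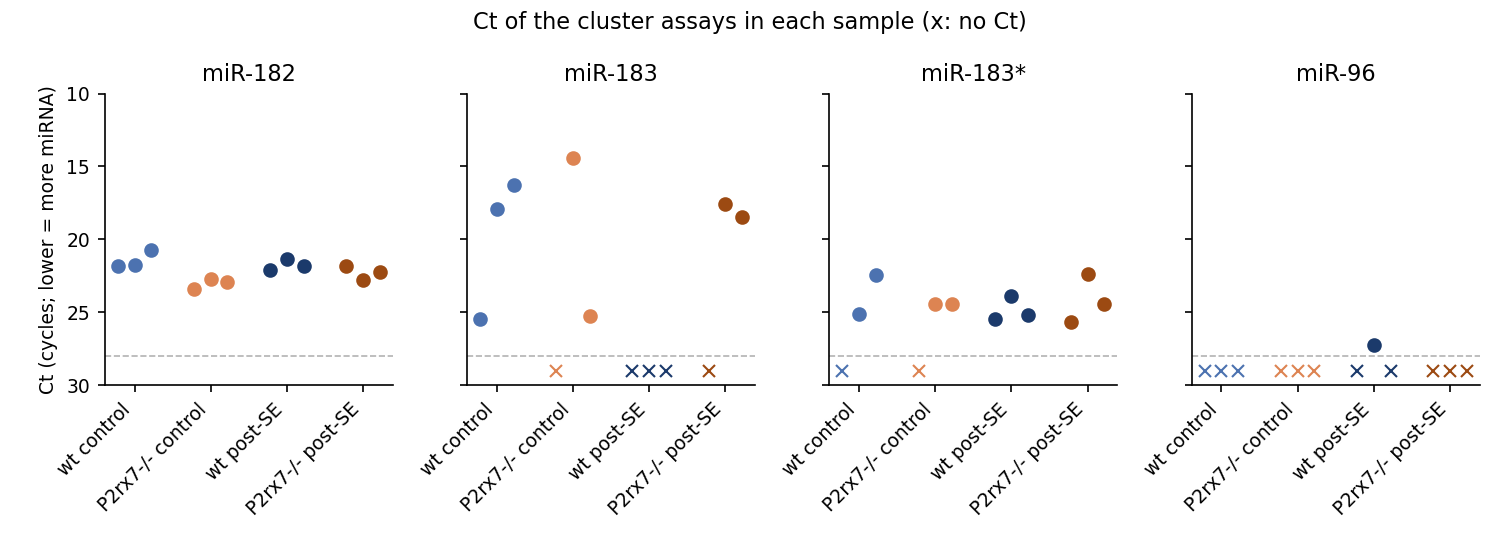
Ct of each cluster assay in the 12 samples, in cycles on an inverted axis so that higher points mean more miRNA. Circles are single samples, crosses are samples without a Ct, and the dashed line marks 28. miR-182 stays within 2.69 cycles, whereas miR-183 spans 11.1 cycles.

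miR-182, the guide strand of the last hairpin, gave Ct values of 21.8, 21.7 and 20.7 in wt control and 23.4, 22.7 and 22.9 in *P2rx7*-/- control samples. After status epilepticus, wt samples gave 22.1, 21.4 and 21.8 and *P2rx7*-/- samples 21.8, 22.8 and 22.3. All 3 *P2rx7*-/- control samples had later Ct values than every wt sample. To compare samples, the mean Ct of the 335 miRNAs was subtracted (ΔCt), and the fold change (FC) was computed as 2 to the power −ΔΔCt, with the mean ΔCt of the reference group as its base. On the log2 scale (−ΔCt), the spread of miR-182 within groups was 0.32 cycles (SD), against a median of 0.64 for the 335 miRNAs. This spread includes the control groups, and a choice by low p favours a small spread there. Among wt post-SE samples alone the SD was 0.36 against a median of 0.43, and among *P2rx7*-/- post-SE samples 0.27 against 0.48.

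On this scale the level of miR-182 was −2.81 ± 0.36 (SD, n = 3) in wt control, −2.83 ± 0.36 in wt post-SE, −3.39 ± 0.27 in *P2rx7*-/- post-SE and −3.94 ± 0.26 in *P2rx7*-/- control samples. The groups are given here from highest to lowest. The 2 wt groups lay 0.02 apart, far less than their spread, and the next steps were 0.56 and 0.55 cycles.

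Under control conditions, the deletion of the P2X7 receptor went with less miR-182. Relative to the wt control average, miR-182 lay at 0.369, 0.508 and 0.506 in *P2rx7*-/- and at 1.02, 0.774 and 1.27 in wt control samples. All *P2rx7*-/- samples were under 0.6 and the groups did not overlap. The average FC was 0.461 ± 0.0794 (SD, n = 3) and the log2 difference −1.13 (standard error 0.32). With limma, 0 of the 335 miRNAs (0%) had an adjusted p below 0.05 in this comparison, and 20 had an unadjusted p below 0.05. These counts describe all 335 miRNAs and are no test of miR-182. By the thresholds of the methods (above 1.5 up-regulated, below 0.6 down-regulated) miR-182 was down-regulated, as were 15.5% of the 335 miRNAs, and 10.4% of them were lower in *P2rx7*-/- mice without overlap. Nothing is read from these shares, as this comparison chose the cluster. Without wt control replicate 1 the average FC was 0.470, and with any 1 sample left out it lay between 0.406 and 0.520. Normalization to snoRNA202, which shifted every miRNA by −0.64 on the log2 scale in this comparison, gave 0.298.

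**Figure D3:**
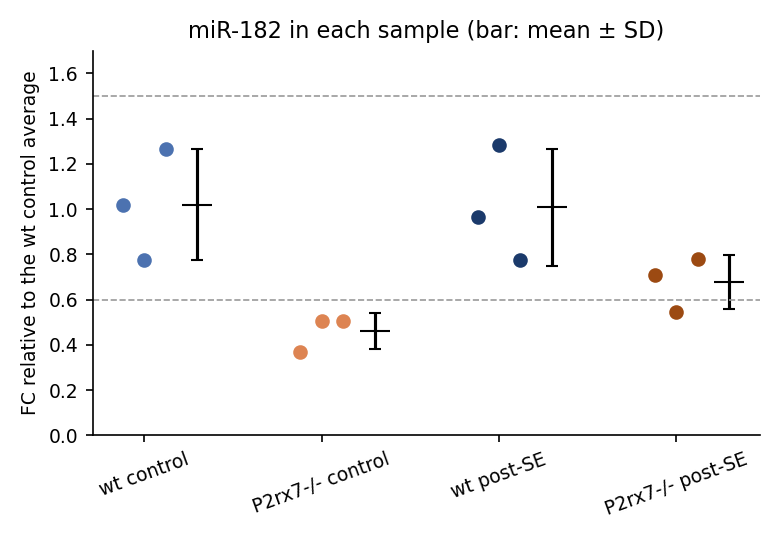
FC of miR-182 in each sample relative to the wt control average, on a linear axis from 0, with the mean ± SD (n = 3) beside each group and dashed lines at 1.5 and 0.6. The *P2rx7*-/- control samples (0.369 to 0.508) lie under all other samples, and the *P2rx7*-/- post-SE samples (0.545 to 0.778) overlap the lower part of the wt range.

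In wt mice, status epilepticus left miR-182 near its control level. The wt post-SE samples lay at 0.966, 1.28 and 0.774 of the wt control average, the same range as the wt control samples themselves. The average FC was 1.01 ± 0.256 (SD, n = 3), between the thresholds, which 35.8% of the 335 miRNAs passed in either direction. The log2 difference was −0.02 (standard error 0.32). The wt control samples also belong to the comparison that chose the cluster, so no test is given. Normalization to snoRNA202 lowered the average FC of miR-182 to 0.605, with a shift of every miRNA by −0.72 on the log2 scale.

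In *P2rx7*-/- mice, miR-182 was higher after status epilepticus than in controls of the same genotype, which belong to the comparison that chose the cluster and held the lowest level of the 4 groups. Relative to the *P2rx7*-/- control average, the *P2rx7*-/- post-SE samples lay at 1.55, 1.20 and 1.71 and the controls at 0.810, 1.11 and 1.11. All 3 post-SE samples exceeded all 3 controls, as for 3.88% of the 335 miRNAs. The average FC of 1.48 ± 0.262 (SD, n = 3) stayed just under the 1.5 threshold, and 25.1% of the miRNAs passed a threshold. The log2 difference was 0.55 (standard error 0.32). Nothing is read from these shares and no test is given, since a low control level was what chose the cluster. The average FC rose above 1.5 without *P2rx7*-/- control replicate 2 (1.57) or replicate 3 (1.57) or without *P2rx7*-/- post-SE replicate 2 (1.64). It also did so with the median Ct (1.56), the mean of all detected assays (1.56) or snoRNA202 (1.64) as normalizer.

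Between genotypes post-SE, no sample of which entered the choice of the cluster, miR-182 averaged lower in *P2rx7*-/- mice, and the difference did not pass the test. Relative to the wt post-SE average, *P2rx7*-/- post-SE samples lay at 0.718, 0.553 and 0.789 and wt post-SE samples at 0.980, 1.30 and 0.785. The groups overlapped, since wt post-SE replicate 3 lay just under *P2rx7*-/- post-SE replicate 3. The average FC was 0.687 ± 0.121 (SD, n = 3), above the 0.6 threshold, and 21.5% of the miRNAs passed a threshold. The log2 difference was −0.56 with a 95% interval of −1.26 to 0.15 (limma, unadjusted p = 0.109, adjusted p = 0.999). By exact permutation (two-sided) p was 0.2, which cannot go below 0.1 with 3 samples against 3. The limma spread was pooled over all 12 samples, so it also rests on the control samples that chose the cluster. With the 2 compared groups alone the standard error was 0.35 in place of 0.32 (adjusted p = 0.979, limma). With limma, 0 of the 335 miRNAs (0%) had an adjusted p below 0.05 and 4 lay below 0.05 before adjustment, and the two-group test of the methods gave 0 and 4. For miR-182 the unadjusted p of that two-group test was 0.0991. The average FC was 0.609 to 0.790 when any 1 sample of these groups was dropped.

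Set against wt control samples, as in the methods, the *P2rx7*-/- post-SE samples had FCs of 0.708, 0.545 and 0.778. Only the highest of them overlapped the wt controls, whose lowest sample lay at 0.774. The average FC was 0.677 ± 0.120 (SD, n = 3), and 33.7% of the miRNAs passed a threshold in either direction. The log2 difference was −0.58 (standard error 0.32). The average FC lay under 0.6 without wt control replicate 2 (0.596) and with snoRNA202 as normalizer (0.480). This comparison shares its wt control samples with the one that chose the cluster, so no test is given.

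The difference between genotypes was −1.13 under control conditions and −0.56 post-SE on the log2 scale. The difference of these differences was 0.57 with a standard error of 0.45, and as it holds the comparison that chose the cluster no test of it is given.

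**Figure D4:**
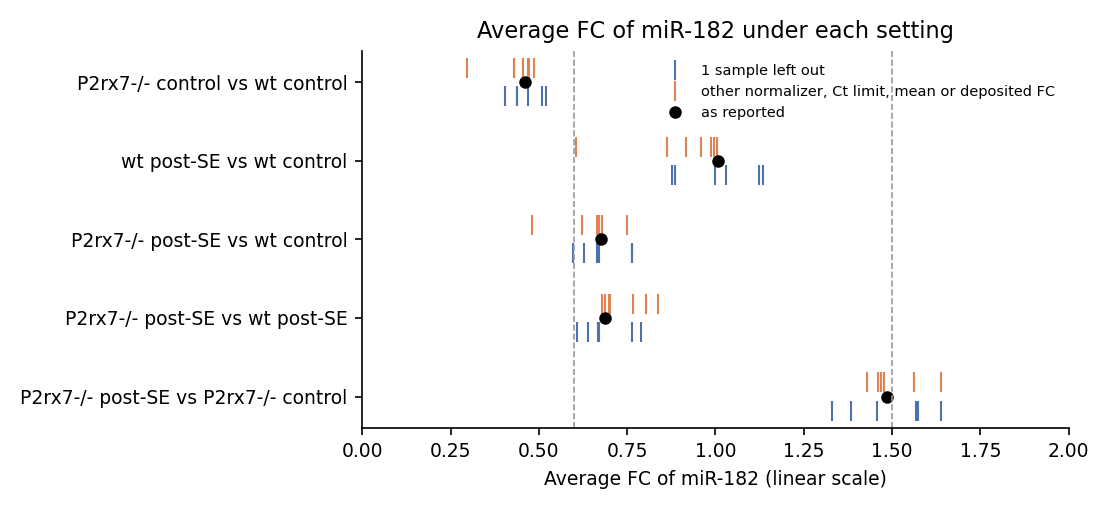
Average FC of miR-182 in the 5 comparisons on a linear axis, as reported (black circles), with 1 sample of the compared groups left out (blue marks) and with another normalizer, Ct limit, kind of mean or the deposited FCs (orange marks). Dashed lines mark 0.6 and 1.5. The *P2rx7*-/- control values relative to wt control run from 0.298 to 0.520 over the settings shown. This comparison chose the cluster and its settings reuse the same samples, so their staying under 0.6 is no separate support.

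miR-183, the guide strand of the first hairpin, gave an uneven picture. Its Ct was 25.5, 17.9 and 16.3 in wt control samples. In *P2rx7*-/- control samples it was 14.4 and 25.2, with replicate 1 empty. In *P2rx7*-/- post-SE samples it was 17.6 and 18.5, again with replicate 1 empty, and all 3 wt post-SE samples were empty. The 7 values fell into 2 levels, 5 between 14.4 and 18.5 and 2 at 25.2 and 25.5, with a gap of 6.78 cycles between them. Both control groups held samples of both levels, so a group mean has little meaning for this assay. The wt control sample at 25.5 was replicate 1, which stood apart from the other samples. Replicate 1 also had the fewest assays with a Ct among wt control (470), *P2rx7*-/- control (488) and wt post-SE samples (476). Among *P2rx7*-/- post-SE samples it did not (512). Its range of 11.1 cycles compared with a median of 2.84 cycles over the 517 assays with a Ct in at least 7 samples, of which 4.45% had a range as wide. A Ct in every wt control and in no wt post-SE sample was found for 4 of the 619 assays (0.646%), miR-183 among them, and as empty values can arise at either end of the scale, no direction follows from it.

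miR-183*, the passenger strand of the same hairpin, had Ct values of 25.1 and 22.4 in wt control samples (replicate 1 empty) and of 24.4 and 24.4 in *P2rx7*-/- control samples (replicate 1 empty). In wt post-SE samples it gave 25.5, 23.9 and 25.2 and in *P2rx7*-/- post-SE samples 25.7, 22.4 and 24.4. The groups overlapped throughout. On the −ΔCt scale the *P2rx7*-/- and wt control samples differed by −0.01 (n = 2 each), where miR-182 differed by −1.13. Post-SE, *P2rx7*-/- samples were 0.64 cycles higher in miR-183* than wt samples (n = 3 each), with SDs of 1.92 and 0.84 cycles within these groups. Relative to controls of the same genotype, the post-SE samples differed by −0.53 in wt and 0.12 in *P2rx7*-/- mice. Fitted with limma over the 478 assays that had a Ct in at least 2 samples of every group, leaving out the 2 empty values of miR-183*, the standard errors of these differences were 1.03 to 1.26. All were larger than the differences, so a change of the size of that of miR-182 was not detectable for miR-183*.

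miR-96, from the middle hairpin and the member known for hearing, had a single Ct of 27.2 in wt post-SE replicate 2 and was empty in the other 11 samples. This Ct lay near the upper limit of the table. No comparison was possible for it.

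Whether the members moved together was examined by correlation for miR-182 and miR-183* alone. Across the 10 samples with both, Pearson's r of −ΔCt was 0.01 (permutation test, p = 0.970) and Spearman's rho 0.13 (permutation test, p = 0.733). As 1 relation was computed, no adjustment was made. The median r over all pairs of the 335 miRNAs in these samples was −0.01, with 0.52 at percentile 90. Without wt post-SE replicate 2 and wt control replicate 3, the samples farthest from the median of miR-182, r was −0.56 (exact permutation test, p = 0.143). For deviations from the group means r was 0.25 (permutation test, p = 0.483). miR-183 shared 7 samples with miR-182 and 6 with miR-183*, enough for the planned minimum of 6. No r is given for these pairs, as the values of miR-183 fell into 2 levels with fewer than 6 samples in each.

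The strands of the miR-183 hairpin could be set side by side in 6 samples. The Ct of miR-183* was higher than that of miR-183 by 7.25 and 6.19 cycles in wt control replicates 2 and 3 and by 10.04 cycles in *P2rx7*-/- control replicate 2. It was lower by 0.811 cycles in *P2rx7*-/- control replicate 3. In *P2rx7*-/- post-SE replicates 2 and 3 the gap was 4.80 and 5.98 cycles. The gap between the strands thus varied mostly with miR-183, as miR-183* stayed within 3.26 cycles over all its samples.

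**Figure D5:**
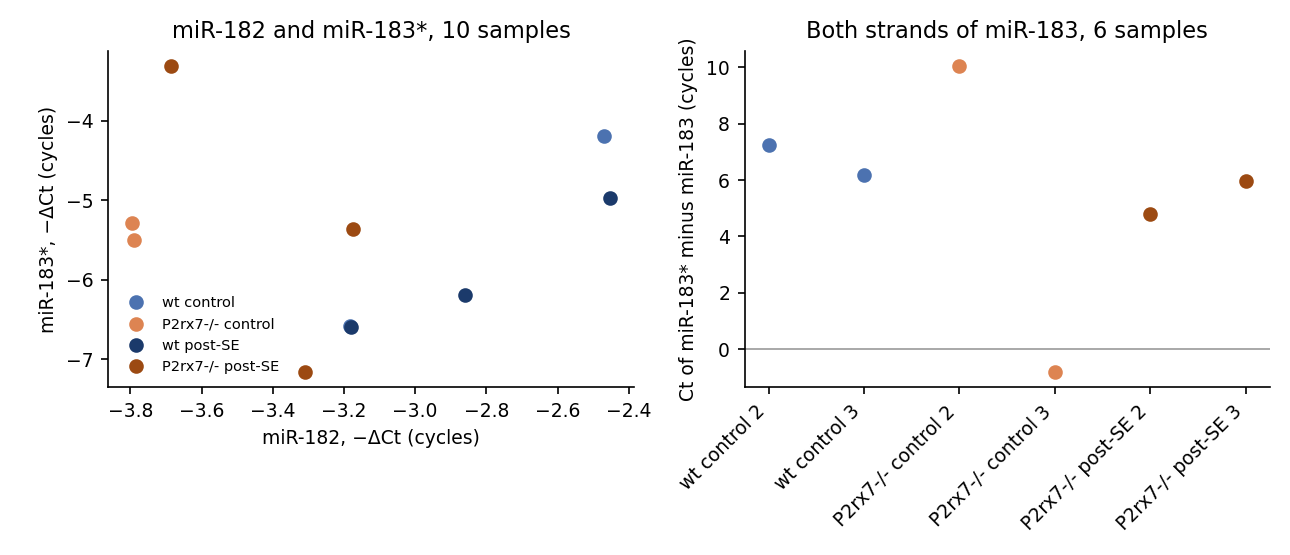
Left, −ΔCt of miR-183* against miR-182 in cycles for the 10 samples with both (wt control replicate 2 and wt post-SE replicate 3 coincide at −3.18 and −6.59). Right, Ct of miR-183* minus Ct of miR-183 in cycles for the 6 samples with both. Points are single samples coloured by group, no trend joins the points on the left (r = 0.01), and *P2rx7*-/- control replicate 3 is the only sample under 0 on the right.

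The miRNAs whose −ΔCt followed miR-182 most closely over the 12 samples were miR-16 (Pearson's r = 0.66), hsa-miR-455 (0.62), miR-93* (0.62), miR-484 (0.62) and miR-139-3p (0.61). Over the 334 other miRNAs the median r was 0.04, with 0.41 at percentile 90. These points share samples and normalizer, and the 5 were taken as the highest of 334. Their average FCs in *P2rx7*-/- relative to wt control samples were 0.615, 0.721, 0.730, 0.628 and 0.605. The samples of this comparison also entered r, which favours FCs under 1, so nothing is read from them. Without wt control replicate 1, 2 of these 5 miRNAs were again among the 5 highest.

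The miR-200 family, another set of miRNAs made from short clusters and known from epithelia and olfactory tissue, served for comparison. Of its 7 assays 5 had a Ct in all samples, against 1 of 4 in the miR-183 cluster. In *P2rx7*-/- relative to wt control samples 1 of these 5 was below 0.6 (miR-429, 0.585) and 1 above 1.5 (hsa-miR-200c_000505, 1.56), with a median FC of 1.03, the same as over all 335 miRNAs, of which 15.5% were below 0.6 and 21.2% above 1.5. Between genotypes post-SE 0 of the 5 passed a threshold (0.841 to 1.19), against 21.5% of all 335 miRNAs. Of the activity-regulated pair miR-132 and miR-212, miR-212 was measured in all samples. Its average FC was 1.64 in wt post-SE relative to wt control and 1.58 in *P2rx7*-/- post-SE relative to *P2rx7*-/- control samples, where miR-182 gave 1.01 and 1.48. For miR-212 these differences had unadjusted p-values of 0.0890 and 0.152 (limma).

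Markers of other cell types were also followed. Of 6 assays typical of choroid plexus and ependyma, 4 had a Ct in all samples, all of them for miR-34b or miR-34c. In *P2rx7*-/- relative to wt control samples their average FCs were 0.401 to 0.877, with miR-34c alone below 0.6. The mean −ΔCt of these 4 was 0.14 to 0.63 in wt control, −1.39 to 0.22 in *P2rx7*-/- control, −1.80 to 0.63 in wt post-SE and −0.17 to 0.23 in *P2rx7*-/- post-SE samples. miR-204, the defining choroid plexus miRNA, had a Ct in 10 samples (10.2 to 15.7) and miR-449 in 11. Neither enters the values of this list, which therefore rest on miR-34b and miR-34c alone. Blood assays (2 of 3 in all samples) had average FCs of 0.707 to 1.13 in *P2rx7*-/- relative to wt control samples. Myeloid assays (3 of 4 in all samples, 2 of them for miR-223) had 1.13 to 1.22. Of these blood and myeloid assays 0 passed a threshold. Of all 335 miRNAs 36.7% passed one in this comparison, and 15.5% were below 0.6. In wt post-SE relative to wt control samples, 1 of the 4 choroid plexus and ependyma assays was below 0.6 (0.556 to 0.653 over the 4). Both blood assays were also below 0.6 (0.321 and 0.501), and 1 of 3 myeloid assays was above 1.5 (0.657 to 1.79). Of all 335 miRNAs 12.5% were below 0.6 and 23.3% above 1.5 there. Between genotypes post-SE, 3 of the 4 choroid plexus and ependyma assays (1.37 to 2.26) were above 1.5, all 3 of them for miR-34b. So were 1 of 2 blood assays (1.28 and 2.01) and 2 of 3 myeloid assays (1.14 to 2.03), both of the latter for miR-223. Assays of the same miRNA or hairpin do not count as separate markers. Of all 335, 17% were above 1.5, and miR-182 had 0.687. Within *P2rx7*-/- mice, 1 of the 4 choroid plexus and ependyma assays was above 1.5 (1.21 to 2.48), against 17.9% of all 335. Above 1.5 were also 0 of 2 blood assays (0.648 and 0.954) and 0 of 3 myeloid assays (1.09 to 1.45). Whether these cell types bear on the levels of miR-182 was not tested.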

How the data were processed

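The authors deposited Ct values per assay and sample without normalization, and a second table of fold changes, each a ratio to wt control replicate 1 after subtraction of the sample's mean Ct. There an empty Ct entered as 0, so that the deposited ratio of miR-183 reached 49761393. *P2rx7*-/- control replicate 2 was instead scaled with the mean of replicate 1 of its group (0.161 cycles apart). The fold changes served only as an alternative. The software of the Ct calls is not given in the sources used here. All per-sample columns matched a sample by name.

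Of 653 assay lines 34 were controls. miRNAs with a Ct below 28 in all 12 samples (335), the filter of the methods, were normalized to their mean Ct. FCs above 1.5 or below 0.6, the thresholds of the methods, were called. Between genotypes this called 71 miRNAs up and 52 down under control conditions, and 57 up and 15 down post-SE. The paper reports fewer in each case, so the shares given here are not its own calls. limma 3.58.1 in R 4.3.3 was fitted to −ΔCt over all samples with 1 coefficient per group and Benjamini-Hochberg adjustment over the 335 miRNAs. Whether this fit could find a difference as small as that of miR-182 between genotypes post-SE (−0.56 on the log2 scale) was not tested. Permutation tests used all arrangements of 3 against 3, or 100000 draws for correlations over 10 samples, in Python 3.11.15 with scipy 1.17.1. Figures were drawn with matplotlib 3.10.9. Empty Ct values were not imputed, the table holds 1 value per assay and sample, and precision rests on the 3 samples of a group.

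The named miRNAs were the cluster assays, the 5 most like miR-182 by Pearson's r, and lists for comparison and for cell types. Members and lists were chosen with earlier results of these data known. Alternatives covered the normalizer, the Ct limit, the averaging, the samples, the replicate block and the fit.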

Additional observations from a re-analysis of the deposited data

How the results depend on the processing

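Leaving out each sample of the compared groups in turn gave average FCs of miR-182 of 0.406 to 0.520 (*P2rx7*-/- control relative to wt control), 0.878 to 1.13 (wt post-SE relative to wt control), 0.596 to 0.763 (*P2rx7*-/- post-SE relative to wt control), 0.609 to 0.790 (*P2rx7*-/- relative to wt post-SE) and 1.33 to 1.64 (*P2rx7*-/- post-SE relative to control). The log2 differences were −1.32 to −0.96, −0.21 to 0.15, −0.76 to −0.39, −0.73 to −0.36 and 0.39 to 0.71 in the same order. The second changed sign without wt control replicate 3 (0.15) or wt post-SE replicate 3 (0.15) and with sample quality weights (0.10). With snoRNA202 as normalizer the average FCs were 0.298, 0.605, 0.480 and, within *P2rx7*-/- mice, 1.64, and the first log2 difference was −1.77. This normalizer shifted every miRNA by −0.64, −0.72, −0.54 and 0.10 in these comparisons. snoRNA135 gave 0.838 between genotypes post-SE, with a shift of 0.30. Within *P2rx7*-/- mice the median Ct and the mean of all detected assays gave 1.56 each.

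Between genotypes post-SE, the comparison for which a test is given, the adjusted p of miR-182 was 0.955 to 0.999 over the settings run (limma). The log2 difference ran from −0.73 (without wt post-SE replicate 3) to −0.26 (snoRNA135) over these settings. Adjusted p-values near the top of their scale do not show that the genotypes are alike. The correlation of miR-182 and miR-183* was −0.56 without the 2 samples farthest from the median, −0.0663 with the mean of all detected assays, −0.0018 with snoRNA202, 0.0730 with the median Ct and 0.371 with snoRNA135. With a Ct limit of 26, miR-96 had a Ct in 0 samples. The replicate numbers were not treated as pairs, as same-numbered samples correlated between −0.23 and 0.28 in their deviations and 6 of 12 samples correlated best with their own number. As every group held each replicate number once, the replicate block could not change the log2 differences (−1.13, −0.02, −0.58, −0.56 and 0.55). With it the standard error was 0.35 in place of 0.32. The FC calls do not use the block.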
